A study of Homo sapiens with 12 samples.

Results

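The genes described here are the insulin-like growth factor (IGF) binding protein genes IGFBP1 to IGFBP7, the receptor genes IGF1R and IGF2R and the ligand gene IGF2. They were taken by gene symbol of the array annotation, and the family was chosen by name with the changes of an earlier fit of these arrays known. Their 10 symbols covered 27 probe sets, of which 22 were in the 8-array table and all 27 in the 4-array table. IGF2 had no probe set of its own. The other 9 genes were each represented by a probe set of their own, among 11939 genes so represented. All 9 exceeded the filter on dim genes, which left 9713 genes in the fit.

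The series set docetaxel-resistant prostate cancer cells against the cells they were selected from. DU145-DR cells were resistant and harvested under docetaxel, a taxane that stabilises microtubules, and DU145 cells were their sensitive parents, grown in RPMI medium with serum alone. 22Rv1-DR and 22Rv1 cells stood in the same relation. DU145 is an established line from a metastasis of a prostate carcinoma, and 22Rv1 is an established line from a prostate cancer xenograft. Each of the 4 groups had 3 samples: replicates 1 and 2 on 8 arrays of one Affymetrix type, and replicate 3 on 4 arrays of a larger type. Because the resistant cells alone were exposed to the drug, resistance and exposure cannot be told apart. The labels give no dose or time under drug, and do not say whether a resistant line is 1 clone or a pool or whether the replicates were separate cultures, so p-values and errors measure the spread between these samples, which may be technical.

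IGF1 and IGF2 are secreted growth factors that act mainly through IGF1R, a receptor tyrosine kinase that recruits adaptor proteins and switches on the PI3K and MAP kinase pathways. IGF2R, also known as the cation-independent mannose 6-phosphate receptor, takes up IGF2 and delivers it to lysosomes. IGFBP1 to IGFBP6 bind IGFs with high affinity and thereby set how much ligand reaches the receptors, whereas IGFBP7 binds them weakly. Proteases release the ligand by cutting the binding proteins. In the prostate this system is known as a growth signal for epithelial cells and their tumours.

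Values are deposited probe-set intensities, and changes are resistant minus parental on the scale of log2 of the intensity plus 16, with limma's standard error from the fit of 8 arrays. That scale understates changes of dim genes. A gene is said to be called, or to have risen or fallen, where the adjusted p was under 0.05 over all genes tested. Since the members were chosen with these same contrasts known, their changes and calls are a description and no p-value is printed for them. Replicate 3 gave the third pair in each line, from single arrays and with no test. In the 8-array table the 5th percentile of intensity was 35.75 to 38.59 on the arrays of the DU145 pair and 11.47 to 12.3 on those of the 22Rv1 pair, so levels are not set between lines there. It was 10.85 to 11 on all 4 arrays of the larger type. In such bulk RNA, fewer cells of a type and less RNA per cell cannot be told apart.

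By the sums of their identity markers, the arrays carried the labelled lines. Of 5 22Rv1 identity markers 3 were on the array. Their summed intensity was 1498 and 1285 in 22Rv1-DR and 1373 and 1212 in 22Rv1. It was 369 and 229 in DU145-DR and 402 and 223 in DU145. Among these markers FKBP5 overlapped between the parental lines, with 97.0 and 117 in 22Rv1 and 101 and 79.3 in DU145, and it fell in 22Rv1-DR. Of the DU145 markers, CAV2 fell in DU145-DR, and VIM and MET fell in 22Rv1-DR. On the third pair VIM gave -0.10 and MET -0.18 in 22Rv1, far less than the -1.02 and -1.88 of the tested arrays. CAV2 gave -1.88 in DU145 there, against -1.53 on the tested arrays. The summed intensity of 5 DU145 identity markers was 44203 and 58325 in DU145-DR and 39113 and 53950 in DU145, and it did not exceed 707 on any 22Rv1 or 22Rv1-DR array of that table. Of 5 epithelial markers, 4 fell in DU145-DR and 2 fell in 22Rv1-DR. Their summed intensity was 8563 and 8901 in DU145-DR against 19794 and 23631 in DU145, and it was 8330.0 and 8183 in 22Rv1-DR against 14448 and 13568 in 22Rv1. Of 5 endothelial and 4 leukocyte markers on the array, 2 each were bright enough to be tested, and neither kind had a gene called by limma in either line, or one past an unadjusted p of 0.05.

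Over all genes, 1069 of 9713 (11.0%) were called in DU145-DR against DU145, 540 (5.56%) in 22Rv1-DR against 22Rv1, and 777 (8.0%) for the difference between the lines. Of the 9 members, 1 rose and 0 fell in DU145-DR, and 2 rose and 0 fell in 22Rv1-DR. IGFBP3 was the member that rose in both, and IGFBP1 rose in 22Rv1-DR. The difference between the lines was called for 1 member, IGFBP1. Nothing is read from these shares, since the members were chosen on the same contrasts.

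IGFBP3 encodes the main IGF carrier of the circulation. The 250 bases before its start are shown because it was the one member that rose in both lines, and those of IGF1R because the probe sets of that gene disagreed. The sequences are those of RefSeq on GRCh38.p14, IGFBP3 at chr7:45921273-45921522 on the minus strand and IGF1R at chr15:98648289-98648538 on the plus strand. Capitals mark matches on either strand to TATANA, the letters of a TATA box, or to GGGCGG, a GC box.
IGFBP3: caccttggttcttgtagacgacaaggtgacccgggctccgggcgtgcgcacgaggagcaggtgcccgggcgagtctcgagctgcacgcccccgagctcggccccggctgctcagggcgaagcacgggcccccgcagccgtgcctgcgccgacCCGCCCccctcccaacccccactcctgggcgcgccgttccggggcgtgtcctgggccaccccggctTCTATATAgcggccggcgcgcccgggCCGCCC
IGF1R: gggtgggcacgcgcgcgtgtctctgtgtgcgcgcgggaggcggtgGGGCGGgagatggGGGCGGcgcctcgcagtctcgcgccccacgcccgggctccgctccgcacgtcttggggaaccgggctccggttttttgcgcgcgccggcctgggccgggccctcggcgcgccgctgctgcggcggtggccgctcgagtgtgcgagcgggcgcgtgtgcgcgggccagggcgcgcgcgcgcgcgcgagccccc
Counted on each strand, the IGFBP3 window held 3 overlapping TATANA matches that began 30 to 32 bases before the start, and 2 GC boxes. TATATA reads the same on both strands, so its position was counted on each. The IGF1R window held 2 GC boxes and no TATANA match. Of 35116 promoter windows of the same length, 17.7% held TATANA and 42.6% held GGGCGG. Among the other members with an entry, IGFBP4 had 1 TATANA match, 29 bases before its start, and IGFBP2, IGFBP5, IGFBP6 and IGF2R had none. IGFBP1, IGFBP7 and IGF2 are named only. A match of letters is a description and not evidence of a bound site.

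The first IGFBP3 probe set, 210095_s_at, read 10661 and 13308 in DU145-DR against 1098 and 1176 in DU145. It read 4390.0 and 5293 in 22Rv1-DR against 393 and 461 in 22Rv1. Every resistant array was several times above both arrays of its parent, with no overlap. The ratio of geometric mean intensities was 10.5 in the DU145 pair and 11.3 in the 22Rv1 pair, and the log2 changes were 3.37 ± 0.21 and 3.45 ± 0.21 (SE, n = 2 arrays a group). These 2 changes differed by 0.08 ± 0.29 (22Rv1 change minus DU145 change), a difference that was not called.

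The third pair went the same way for IGFBP3. Its intensity was 1641 in DU145-DR against 109 in DU145, and 12590.1 in 22Rv1-DR against 1499 in 22Rv1, with log2 differences of 3.73 and 3.06. The second probe set, 212143_s_at, read 3148 and 4451 in DU145-DR against 294 and 313 in DU145, and 1226 and 1128 in 22Rv1-DR against 111 and 99.0 in 22Rv1. Its changes were 3.56 ± 0.21 in the DU145 pair and 3.30 ± 0.21 in the 22Rv1 pair. On replicate 3 it read 290.0 in DU145-DR against 48.2 in DU145, and 3717 in 22Rv1-DR against 385 in 22Rv1. Both IGFBP3 probe sets therefore had the higher reading in the resistant array of all 3 pairs in both lines.

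Fibroblast markers were recorded beside IGFBP3, which stromal cells also make. Of 12 such markers 9 were tested, of which 2 rose in DU145-DR (FBN1 and FBLN1) and 1 rose in 22Rv1-DR (LUM). LUM exceeded the filter on dim genes through 22Rv1-DR alone, so it had to read higher there. The FBLN1 call held in 1 of 8 fits that each left out an array, the one without DU145-DR replicate 1 (limma adjusted p from 0.0199 to 0.179). The summed intensity of the 12 was 2155 and 1606 in DU145-DR against 1422 and 1009.9 in DU145, and 3124 and 4272 in 22Rv1-DR against 314 and 295 in 22Rv1. LUM, the gene of the matrix proteoglycan lumican, alone read 2778 and 3984 in 22Rv1-DR against 28.8 and 41.9 in 22Rv1. On replicate 3 the gap was far smaller, with LUM at 1698 in 22Rv1-DR against 729 in 22Rv1 (a log2 difference of 1.20) and the sum of the 12 at 2142 against 1204 in the same groups. COL1A2, a chain of type I collagen, read 90.5 and 79.3 in DU145-DR against 98.4 and 74.0 in DU145, and 26.0 and 26.4 in 22Rv1-DR against 25.3 and 26.4 in 22Rv1. COL1A2 did not exceed percentile 34.3 of any array of the table. The part of these markers, and of the epithelial ones above, in the IGFBP3 readings was not tested.

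**Figure D1:**
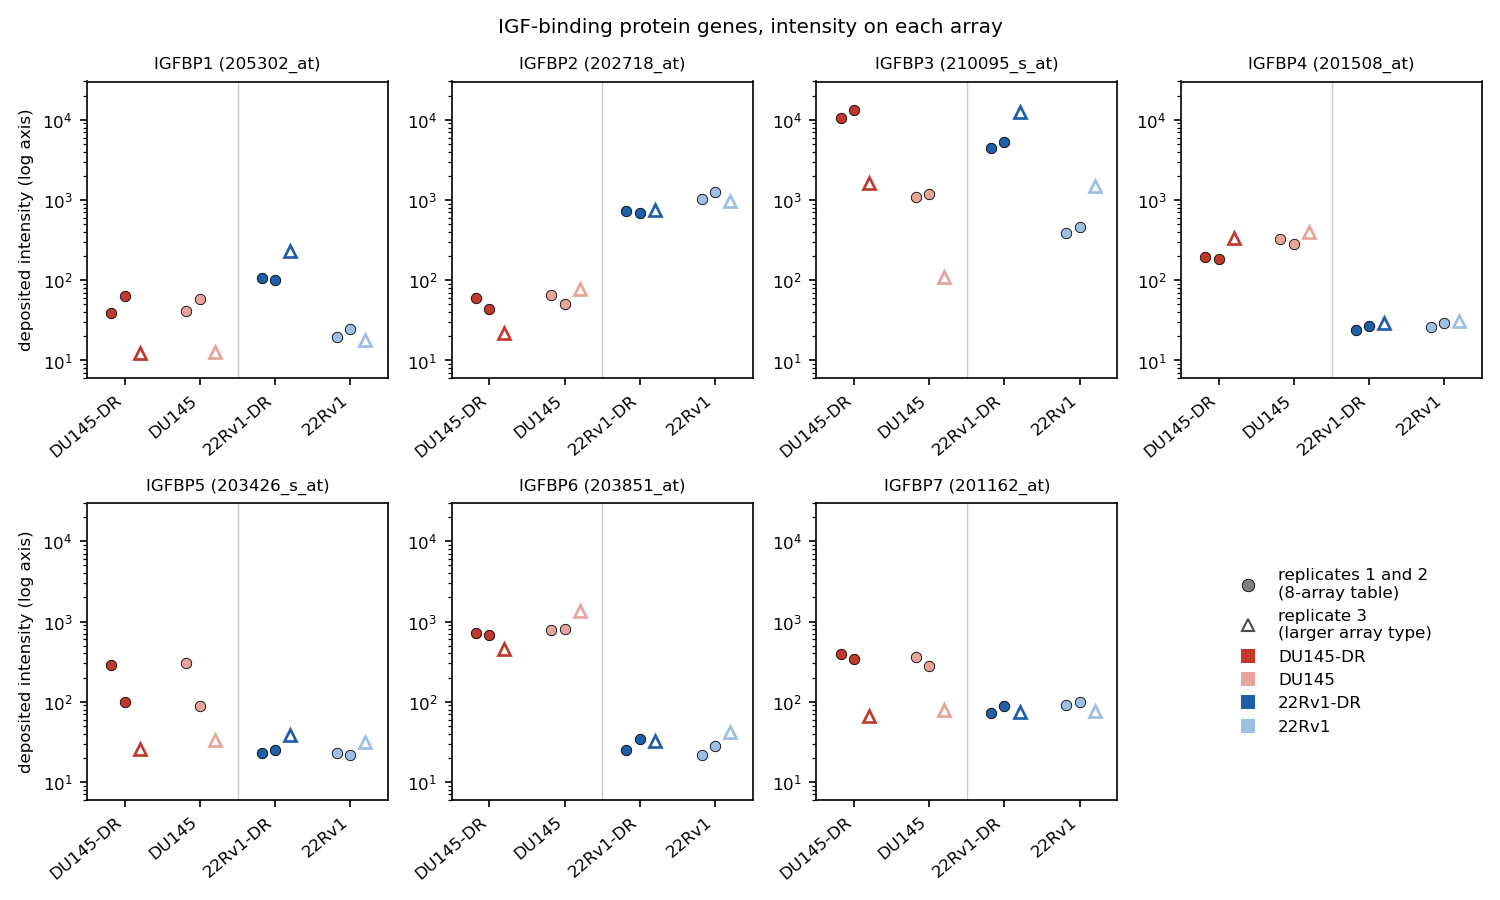
Deposited intensity (log axis) of the representative probe set of each IGF-binding protein gene on every array. Filled circles are replicates 1 and 2 and open triangles are replicate 3 on the larger array type, whose level is not comparable with that of the circles. IGFBP3 was higher in the resistant array of every pair, and IGFBP1 in that of every 22Rv1 pair.

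IGFBP1, known as a liver and decidua product that responds to insulin, rose in 22Rv1-DR cells. It read 107 and 101 in 22Rv1-DR against 19.7 and 24.8 in 22Rv1, and 39.4 and 63.1 in DU145-DR against 41.1 and 58.1 in DU145. The groups were apart in 22Rv1 and overlapped in DU145. On those parental 22Rv1 arrays the 25th percentile was 20.4 and 19.6, so both parental readings were dim and the size of the change depends on the floor. IGFBP1 exceeded the filter on dim genes (intensity 74.0) through 22Rv1-DR alone, and its DU145-DR and DU145 readings lay between percentiles 6.2 and 25.6 of their arrays. The log2 change was 1.65 ± 0.23 in the 22Rv1 pair and 0.03 ± 0.23 in the DU145 pair, a difference of 1.63 ± 0.33 (22Rv1 change minus DU145 change).

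The third pair of IGFBP1 read 231 in 22Rv1-DR against 17.9 in 22Rv1, and 12.5 in DU145-DR against 12.6 in DU145, with log2 differences of 2.86 and -0.01. A second IGFBP1 probe set, 237989_at, which only the larger array holds, read between 10.1 and 12.2 on all 4 arrays. It lay at the floor of the table and showed no such rise. The call of the difference between the lines was lost when DU145 replicate 2 was left out, and likewise for each single 22Rv1-DR or 22Rv1 array, and the value ran from 1.37 to 1.88 over the 8 arrays left out in turn.

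IGFBP2, a binding protein abundant in prostate tumours, read 724 and 685 in 22Rv1-DR against 1024 and 1243 in 22Rv1, and both resistant arrays were below both parental ones. The change was -0.67 ± 0.21, which was not called in the fit described here but passed in 2 of 17 alternative settings. In DU145-DR it read 60.1 and 43.4 against 65.3 and 50.9 in DU145, overlapping values near the floor, with a change of -0.13 ± 0.21. The third pair gave 22.2 in DU145-DR against 78.2 in DU145 (-1.30), and 744 in 22Rv1-DR against 969 in 22Rv1 (-0.37). The parental array was the higher one in all 3 pairs of both lines.

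IGFBP4, an inhibitory binding protein cut by the protease PAPP-A, read 193 and 185 in DU145-DR against 329 and 282 in DU145. The groups did not overlap and the change was -0.65 ± 0.18, which was not called in the fit described here but passed in 7 of 17 alternative settings. The third pair was closer, at 333 in DU145-DR against 399 in DU145. In 22Rv1-DR IGFBP4 read 23.8 and 26.9 against 26.0 and 29.0 in 22Rv1, a change of -0.07 ± 0.18.

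IGFBP5, a binding protein that also attaches to extracellular matrix, had the widest spread between replicates in the DU145 pair. Its probe set 203426_s_at read 290.0 and 99.0 in DU145-DR against 307 and 88.0 in DU145. The replicate 1 arrays of both groups were high and the replicate 2 arrays of both were low. Its changes were 0.03 ± 0.55 in the DU145 pair and 0.05 ± 0.55 in the 22Rv1 pair, where readings were 22.8 and 24.8 in 22Rv1-DR against 22.8 and 21.9 in 22Rv1. Probe set 203426_s_at showed no such replicate pattern in the 22Rv1 pair. In the DU145 pair the pattern was also seen on 203425_s_at, with 119 and 92.4 in DU145-DR against 132 and 85.0 in DU145. It was seen as well on 211958_at, with 115 and 59.7 against 111 and 49.2 in the same groups. It was absent on 211959_at and on 203424_s_at, which read 47.5 and 58.9 in DU145-DR against 54.6 and 62.2 in DU145. Apart from 203426_s_at, the 4 IGFBP5 probe sets of the 8-array table gave changes between -0.15 and 0.27, and a sixth, 1555997_s_at, which is on the larger array alone, read 10.1 to 10.8.

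IGFBP6, which prefers IGF2 to IGF1, read 719 and 671 in DU145-DR against 787 and 815 in DU145, a change of -0.20 ± 0.19. On the third pair it read 458 in DU145-DR against 1342 in DU145, a log2 difference of -1.52, far more than on the tested arrays. In 22Rv1-DR it read 24.9 and 34.1 against 21.4 and 28.1 in 22Rv1 (0.16 ± 0.19), and the third pair gave -0.25. IGFBP7, a secreted protein of vessel walls and epithelium, read 391 and 345 in DU145-DR against 365 and 280.1 in DU145, and 71.5 and 88.6 in 22Rv1-DR against 89.9 and 98.4 in 22Rv1. Its changes of 0.19 ± 0.21 and -0.20 ± 0.21 were of the size of their errors. The other IGFBP7 probe sets, 201163_s_at and 213910_at, were too dim to be tested.

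The IGF2 readings cannot be assigned to IGF2 alone. All 3 of its probe sets are annotated to both IGF2 and the read-through gene INS-IGF2, so they were left out of the fit and their values carry no error. Probe set 202409_at read 458 and 177 in DU145-DR against 102 and 115 in DU145, and 34.8 and 18.3 in 22Rv1-DR against 26.7 and 20.3 in 22Rv1. The DU145-DR arrays were above both DU145 arrays but differed widely between themselves, and the 22Rv1 groups overlapped. On the third pair it read 242 in DU145-DR against 34.1 in DU145, a log2 difference of 2.37, and 29.4 in 22Rv1-DR against 24.6 in 22Rv1. The probe sets 202410_x_at and 210881_s_at gave 0.09 and 0.04 in the DU145 pair and 0.32 and 0.07 on the third pair of that line, so 1 of the 3 probe sets carried the higher DU145-DR reading.

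The IGF1R probe sets differed in their changes in DU145-DR. The one brightest on average, 203627_at, which stood for the gene in the fit, read 300.2 and 292 in DU145-DR against 186 and 322 in DU145, with overlap and a change of 0.26 ± 0.25. Probe set 203628_at read 107 and 62.2 in DU145-DR against 471 and 388 in DU145, without overlap, and its change was -2.18 ± 0.24. Probe set 208441_at read 115 and 48.5 against 118 and 52.7 in the same groups (-0.06 ± 0.38). The same gene thus gave overlapping groups, a fall and a difference between replicates, depending on the probe set.

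The third pair of DU145 gave 203627_at and 203628_at opposite directions. There 203627_at read 383 in DU145-DR against 125 in DU145 (1.50), and 203628_at read 32.7 in DU145-DR against 556 in DU145 (-3.56). Of the probe sets on the larger array alone, 225330_at read 929 in DU145-DR against 1448 in DU145 (-0.63) and 243358_at read 19.3 against 28.8 (-0.35). In this pair 1 probe set was higher in DU145-DR and the other 4 of IGF1R were lower. Which part of the transcript each probe set reads is not given in the files used here.

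In the 22Rv1 pair the IGF1R readings were low on the tested arrays. Probe set 203627_at read 12.9 and 14.2 in 22Rv1-DR against 21.9 and 22.9 in 22Rv1 (-0.38 ± 0.25), and 203628_at read 18.1 and 17.9 in 22Rv1-DR against 24.1 and 26.4 in 22Rv1 (-0.28 ± 0.24). Both were lower in the resistant arrays without overlap, and neither was called. On the third pair 225330_at read 18.3 in 22Rv1-DR against 410.1 in 22Rv1, a log2 difference of -3.64, while 203627_at gave -1.03 and 203628_at gave -0.68. No probe set of IGF1R read higher in the 22Rv1-DR array of the third pair than in the 22Rv1 array, and 243358_at read 19.97 in both.

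IGF2R, the clearance receptor, read 2034 and 3259 in DU145-DR against 1361 and 1938 in DU145 on probe set 201393_s_at. Both DU145-DR arrays were above both DU145 arrays, and the change of 0.66 ± 0.27 was not called. It read 771 and 662 in 22Rv1-DR against 609 and 588 in 22Rv1, a change of 0.25 ± 0.27. Probe set 201392_s_at gave 0.54 ± 0.36 in the DU145 pair and 0.26 ± 0.36 in the 22Rv1 pair. The third pair gave 0.38 and 0.06 on 201393_s_at, 0.90 and 0.33 on 201392_s_at, and 0.57 and 0.30 on 1569052_at, which is on the larger array alone. In every pair of arrays with the same number the resistant array thus had the higher IGF2R reading. The 201393_s_at change in DU145-DR passed in 3 of 17 alternative settings.

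**Figure D2:**
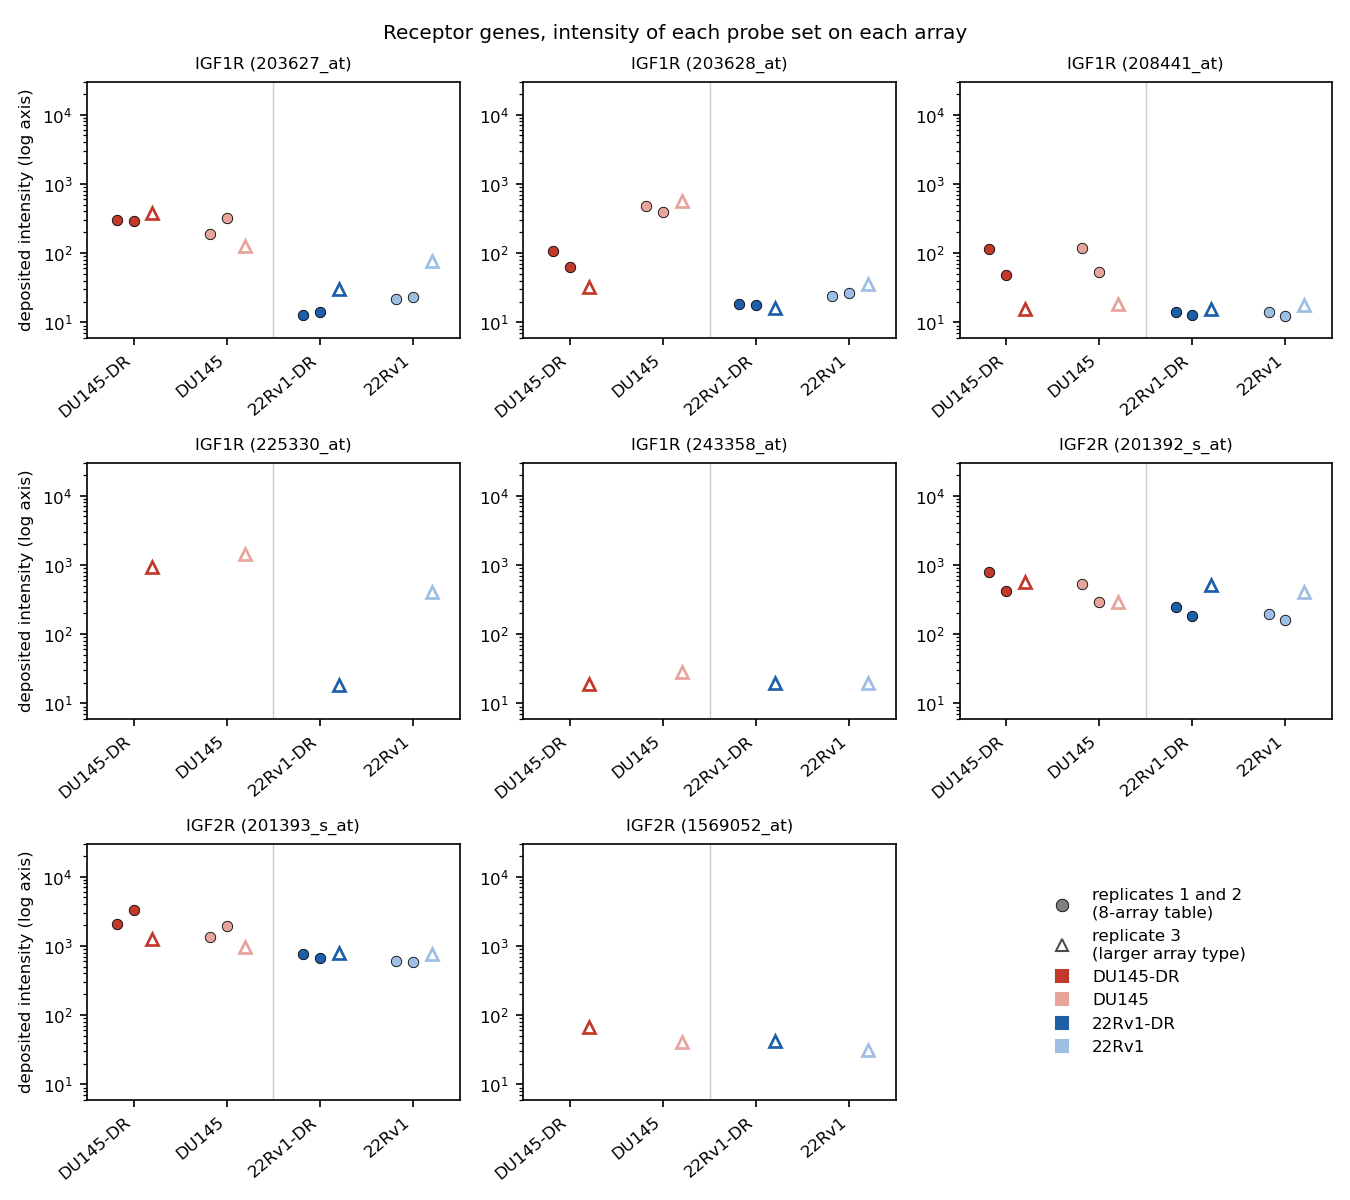
Deposited intensity (log axis) of each receptor probe set on every array, with 5 panels for IGF1R and then 3 for IGF2R. Filled circles are replicates 1 and 2 and open triangles are replicate 3. For IGF1R in DU145-DR against DU145, 203628_at was lower on every pair while 203627_at was not.

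Counted by probe set, 15 member probe sets were bright enough to be tested. In DU145-DR 2 of them rose, both of IGFBP3, and 1 fell, 203628_at of IGF1R, where 8.99% of all 14813 probe sets were called. In 22Rv1-DR 3 rose, the IGFBP3 pair and 205302_at of IGFBP1, and 0 fell, where 4.07% of all probe sets were called. On the third pair a difference of at least 1 on the log2 scale, either way, was seen in 18.6% of genes for DU145 and 6.69% for 22Rv1. Among the 9 members it was seen in 4 for DU145, IGFBP3 and IGF1R upward and IGFBP2 and IGFBP6 downward, and in 3 for 22Rv1, IGFBP3 and IGFBP1 upward and IGF1R downward. The sign on the third pair was that of the tested arrays for 6 of 9 members in DU145 and 8 of 9 in 22Rv1. How many of all genes kept their sign was not counted, and some of these changes were close to none, so nothing is read from these counts.

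**Figure D3:**
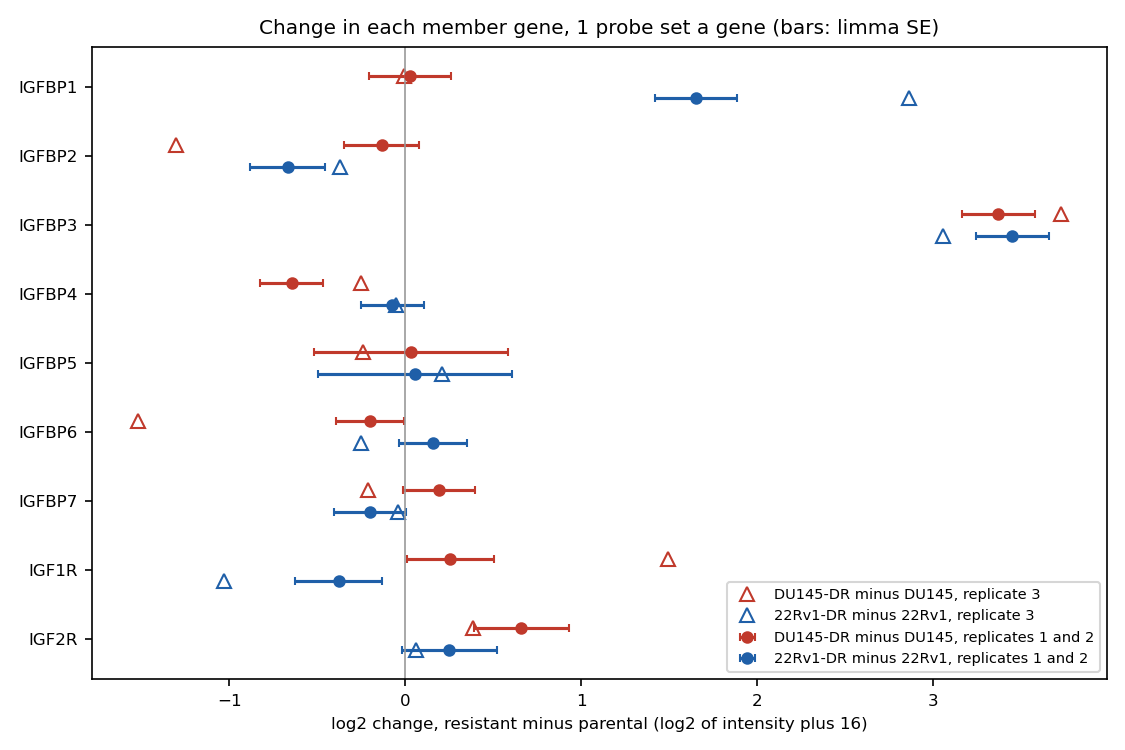
Log2 change, resistant minus parental, of the 9 member genes with a probe set of their own. Circles with bars are the limma estimates and standard errors over replicates 1 and 2, and triangles are the third pair. IGFBP3 stands at 3.37 and 3.45 in the 2 lines, and IGFBP1 at 0.03 in DU145 and 1.65 in 22Rv1.

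The lines can be set side by side on the larger array, whose floors were alike, with 1 array a group and no test. IGFBP3 was highest in 22Rv1-DR at 12590.1, lowest in DU145 at 109, and close together in DU145-DR at 1641 and 22Rv1 at 1499. IGFBP2 read 744 in 22Rv1-DR and 969 in 22Rv1, and only 22.2 in DU145-DR and 78.2 in DU145. For IGFBP6 the DU145 pair was the higher one, with 458 in DU145-DR and 1342 in DU145, and 32.7 in 22Rv1-DR and 41.9 in 22Rv1. IGFBP4 likewise read 333 in DU145-DR and 399 in DU145, and 29.7 in 22Rv1-DR and 31.3 in 22Rv1. Both arrays of one line were thus above both arrays of the other for IGFBP2, IGFBP4 and IGFBP6, but not for IGFBP3. The same separation was seen for IGFBP1, for IGF1R on 203627_at and for IGF2R on 201393_s_at. It was not seen for IGFBP5 and IGFBP7. How many of all genes separate the lines in this way was not counted, so nothing is read from it.

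The genes nearest to the binding proteins in the RefSeq gene order of GRCh38.p14 were read as well. IGFBP1 and TNS3, a focal adhesion gene, flank IGFBP3. TNS3 read 1144 and 1136 in 22Rv1-DR against 199 and 174 in 22Rv1, and 617 and 2369 in DU145-DR against 1585 and 2452 in DU145. Its change was 2.52 ± 0.52 in the 22Rv1 pair (limma adjusted p = 0.0258) and -0.69 ± 0.52 in the DU145 pair (adjusted p = 0.512), and the difference was 3.21 ± 0.73 (adjusted p = 0.0335). The 22Rv1 call and that of the difference were both lost on leaving out either DU145 array or a single array of 22Rv1-DR or 22Rv1. In 22Rv1-DR both flanking genes thus read higher together with IGFBP3, while in DU145-DR neither was called. IGFBP2 and IGFBP5 are neighbours of each other, and their outer neighbours RPL37A and IGFBP-AS1 gave between 0.01 and 0.07 in both lines.

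The 5 genes whose values ran most like IGFBP3 over the 8 arrays, after the mean of each line was subtracted, were LONP2 (r = 0.995), SLC3A2 (0.994), NRCAM (0.994), NFATC1 (0.990) and HTRA1 (0.990). These correlations are descriptions over 8 arrays that share 2 lines and mainly follow the step between resistant and parental arrays. NRCAM, a neural cell adhesion gene, had the largest changes of the 5 genes, 2.48 ± 0.22 in DU145-DR and 2.91 ± 0.22 in 22Rv1-DR, given as a description because the genes were picked for that step. It read 300.2 and 455 in DU145-DR against 56.1 and 50.6 in DU145, and 588 and 560.3 in 22Rv1-DR against 61.0 and 63.6 in 22Rv1.

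The other genes of the IGF axis were taken from 6 lists, written with earlier results of these data known. Their p-values are therefore descriptions, as are the calls of the members. Of 71 listed genes 55 were tested. In DU145-DR 8 rose, 4 fell and 43 did not pass, with a median change of -0.01 against -0.01 over all genes. In 22Rv1-DR 4 rose, 0 fell (3 at an unadjusted limma p under 0.05) and 51 did not pass, with a median of 0.04 against 0.01 over all genes. Of all genes tested, 11.0% were called in DU145-DR and 5.56% in 22Rv1-DR. These shares stand beside the counts of every list below, and nothing is read from the counts of lists this short. Some listed genes are not reported here. Of the ligand and insulin receptor list 0 of 3 were called in either line by limma, and 0 at an unadjusted p under 0.05. IGF1 read 91.8 and 91.1 in DU145-DR against 92.4 and 105 in DU145 and changed by -0.09 ± 0.18 (adjusted p = 0.902), and by -0.15 ± 0.18 in the 22Rv1 pair (adjusted p = 0.903). These readings were dim. In the 22Rv1 pair IGF1 read 22.5 and 18.3 in 22Rv1-DR against 25.8 and 22.6 in 22Rv1, near the floor. Its small changes therefore do not show that IGF1 was unchanged. INSR, the insulin receptor gene, gave -0.39 ± 0.18 (adjusted p = 0.238) in the DU145 pair and 0.39 ± 0.18 (adjusted p = 0.343) in the 22Rv1 pair.

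Genes of proteases that cut the binding proteins, and of inhibitors of such proteases, were among those called. Of 12 carriers, proteases and protease inhibitors, 3 rose and 1 fell in DU145-DR, and 2 rose and 0 fell in 22Rv1-DR. HTRA1, a secreted protease that cuts IGFBP5, rose in both lines, by 1.90 ± 0.20 in DU145-DR (limma adjusted p = 0.000829) and 1.75 ± 0.20 in 22Rv1-DR (adjusted p = 0.00154), with 0.91 and 0.51 on the third pair. It read 2521 and 3259 in DU145-DR against 724 and 792 in DU145. ADAM12, a protease that cuts IGFBP3 and IGFBP5, rose in DU145-DR by 2.44 ± 0.22 (limma adjusted p = 0.000366), where it read 393 and 484 against 82.1 and 54.6 in DU145. In 22Rv1-DR ADAM12 gave 0.10 ± 0.22, and the difference between the lines was -2.34 ± 0.31 (adjusted p = 0.00303).

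STC1, an inhibitor of the IGFBP4 protease PAPP-A, went opposite ways in the 2 lines. It read 62.2 and 73.5 in DU145-DR against 1067 and 996 in DU145, and 1038 and 1017 in 22Rv1-DR against 33.4 and 23.9 in 22Rv1. STC1 fell by 3.65 ± 0.19 in DU145-DR (limma adjusted p = 2.07e-05) and rose by 4.56 ± 0.19 in 22Rv1-DR (adjusted p = 1.13e-05), and the difference was 8.20 ± 0.27 (adjusted p = 5.98e-06). The third pair, at -3.12 and 2.51, kept these signs. On the tested arrays the lower STC1 readings were dim. The 25th percentiles there were 72.5 and 62.25 in DU145-DR, and 20.4 and 19.6 in 22Rv1. The sizes of both changes and of their difference therefore depend on the floor. STC2, a related inhibitor, rose in DU145-DR by 0.93 ± 0.22 (adjusted p = 0.0313), a call that survived only the removal of DU145-DR replicate 1 among the 8 arrays left out in turn (adjusted p up to 0.155).

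Of 8 tested secreted proteins with an IGFBP-like domain, 3 rose and 1 fell in DU145-DR, and 1 rose in 22Rv1-DR, which was HTRA1, also in the preceding list. CCN2, known as connective tissue growth factor, read 4012 and 4973 in DU145-DR against 714 and 885 in DU145 and rose by 2.47 ± 0.20 (limma adjusted p = 0.000253). CCN3 rose by 2.58 ± 0.25 (adjusted p = 0.000471) and CCN5 fell by 2.35 ± 0.28 (adjusted p = 0.00129) in the same cells. In 22Rv1-DR the changes of CCN2, CCN3 and CCN5 were 0.16, 0.12 and 0.08, and all 3 differed between the lines (adjusted p = 0.00227, 0.00442 and 0.00767). CCN3 read 294 and 481 in DU145-DR against 56.1 and 44.0 in DU145, where the 25th percentiles were 76.1 and 62.7. CCN3 exceeded the filter on dim genes through DU145-DR alone, so it had to read higher there. The sizes of its rise and of its difference between the lines therefore depend on the floor. CCN3 read 22.8 and 18.3 in 22Rv1-DR against 17.5 and 17.5 in 22Rv1. CCN5 read 22.6 and 36.3 in 22Rv1-DR against 22.0 and 31.6 in 22Rv1. These CCN3 and CCN5 readings of the 22Rv1 pair were near the floor, so a fall in 22Rv1-DR could not be seen. The third pair of 22Rv1 was not as flat: CCN3 read 65.3 in 22Rv1-DR against 14.2 in 22Rv1 (1.43), CCN2 read 93.7 against 221 in the same groups (-1.11), and CCN5 gave 0.01. In DU145 the third pair gave 2.06, 2.69 and -4.32 for CCN2, CCN3 and CCN5. CCN1 gave 0.08 ± 0.29 (adjusted p = 0.964) in the DU145 pair and 0.83 ± 0.29 (adjusted p = 0.182) in the 22Rv1 pair. Of the mRNA-binding proteins, IGF2BP2 rose in 22Rv1-DR by 1.16 ± 0.21 (adjusted p = 0.0152), a call lost without any 1 of the 4 arrays of that pair (adjusted p up to 0.166). IGF2BP3 gave -0.35 ± 0.64 and -0.26 ± 0.64 and was called in neither line (adjusted p = 0.885 and 1).

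Downstream of the receptors, 2 of 11 receptor adaptors rose and 1 fell in DU145-DR, and 1 rose in 22Rv1-DR. IRS1, the docking protein that couples IGF1R to PI3K, read 162 and 282 in DU145-DR against 1075 and 1722 in DU145, and fell by 2.58 ± 0.30 (limma adjusted p = 0.00122). It read 258 and 231 in 22Rv1-DR against 512 and 468 in 22Rv1, a change of -0.96 ± 0.30 that was not called (adjusted p = 0.129), and the difference between the lines was not called either (1.62 ± 0.42, adjusted p = 0.0540). The third pair of IRS1 gave -3.56 in DU145 and -0.86 in 22Rv1. IRS2, its relative, gave -0.41 ± 0.19 (adjusted p = 0.247) and -0.74 ± 0.19 (adjusted p = 0.0718).

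GRB10, an adaptor that dampens insulin and IGF1 receptor signals, rose by 1.39 ± 0.24 in DU145-DR (limma adjusted p = 0.00841) and by 1.40 ± 0.24 in 22Rv1-DR (adjusted p = 0.0111). The third pair gave GRB10 0.21 in DU145, much less than the tested arrays, and 1.27 in 22Rv1. The first call did not survive leaving out DU145 replicate 1 (adjusted p = 0.0630), and the second without any 1 of the 4 arrays of its pair (adjusted p up to 0.0937). SOS1, which activates RAS, rose in DU145-DR by 1.22 ± 0.22 (adjusted p = 0.0109), and its call too needed DU145 replicate 1 (adjusted p = 0.0670 when it was left out). Of 20 genes of PI3K, AKT, mTOR and FOXO, 1 rose and 1 fell in DU145-DR and 0 were called in 22Rv1-DR, where 1 was lower and 0 higher at an unadjusted p under 0.05. PIK3R1, a regulatory subunit of PI3K, rose by 0.82 ± 0.22 (adjusted p = 0.0460), a call lost without any 1 of the 8 arrays (adjusted p up to 0.156). EIF4EBP1, a repressor of translation that mTOR inactivates, fell by 0.89 ± 0.21 (adjusted p = 0.0290), a call that survived only the removal of DU145-DR replicate 2 (adjusted p up to 0.132). EIF4EBP1 showed no fall on the third pair of DU145, with 910.2 in DU145-DR against 879 in DU145 (0.049), and PIK3R1 gave 0.35 there.

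**Figure D4:**
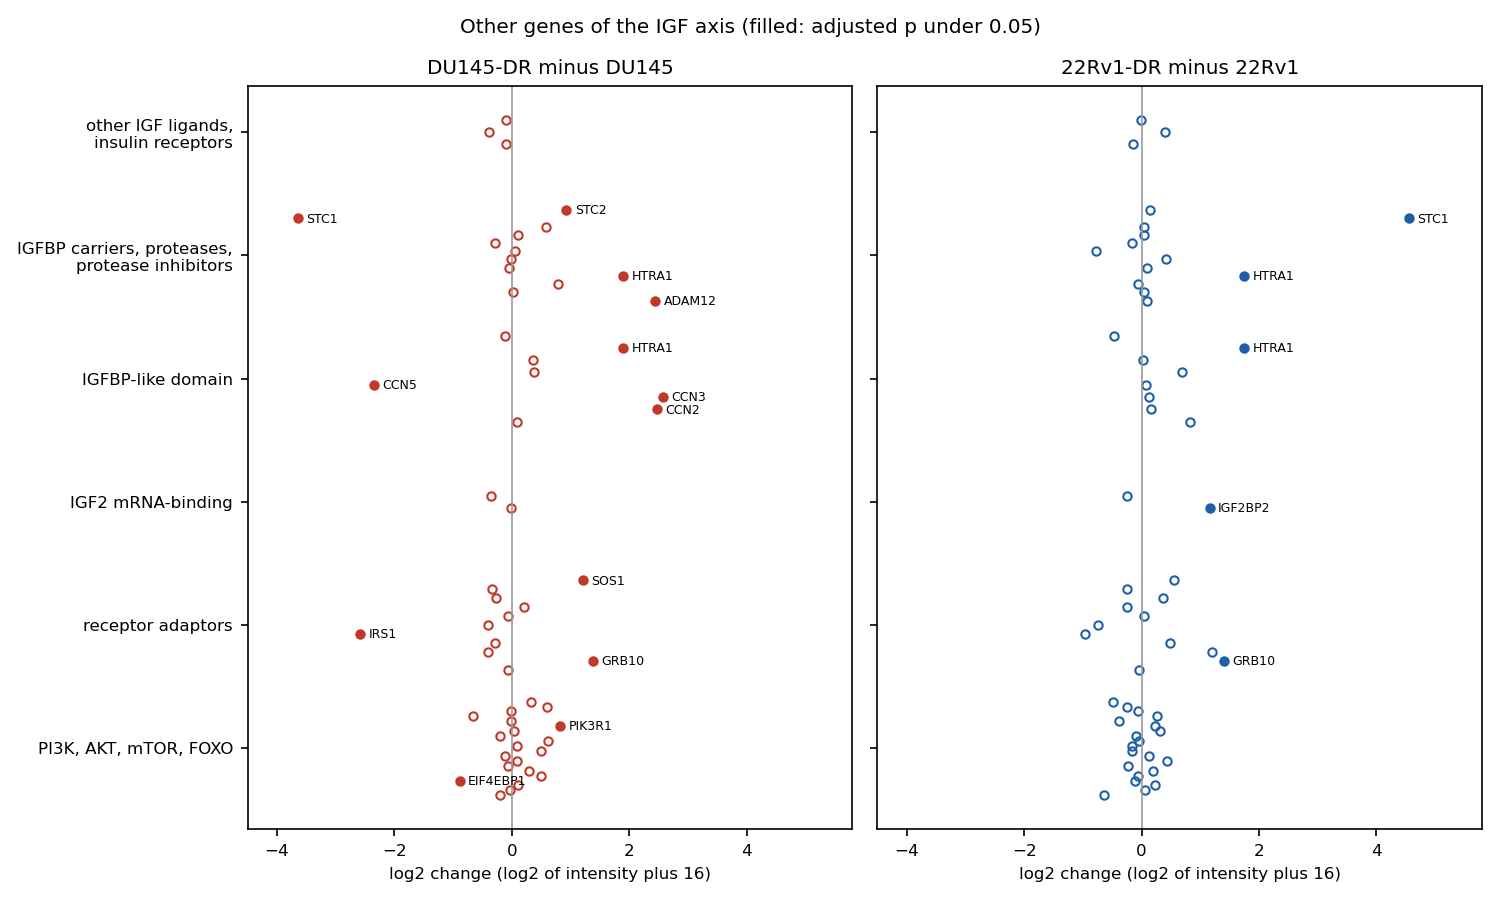
Log2 change of each tested gene of the 6 IGF axis lists, DU145-DR minus DU145 on the left and 22Rv1-DR minus 22Rv1 on the right. Filled points had a limma adjusted p under 0.05 and are named, and open points did not pass. STC1 lies at -3.65 in DU145 and at 4.56 in 22Rv1.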

How the data were processed

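Biotin-labelled cRNA from total RNA of 12 samples was hybridised to 2 types of Affymetrix arrays, per the labels' protocols. The deposited tables hold linear intensity for 22215 and 54613 probe sets. Per the submitters' processing notes MAS5 and RMA were used. The sources used here do not give their roles, order or versions, the normalization or the genome build. Precision is limited by the number of arrays.

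Probe sets with 1 symbol in the annotation supplied were used (19064 and 41091). Probe sets with none (2108 and 11721) or more than 1 (1043 and 1801) were not, and 31 of the smaller table were left out as Y-linked or X-inactivation genes. Each gene was represented by its brightest probe set not prone to cross-hybridization by name, or, where all were prone (as for KRT8 and KRT18), by the brightest of these. Genes whose group mean exceeded the 40th percentile (intensity 74.0) in no group were left out. The log2 of the intensity plus 16 was fitted in R 4.3.3 with limma 3.58.1 over replicates 1 and 2 of the 4 groups without a block (4 residual and 4.47 prior degrees of freedom), with Benjamini-Hochberg adjustment over all genes tested. Single probe sets were fitted in the same way. The third pair had no test. The procedure was tested on simulated data.

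Named genes are all members, IGF1, INSR, IRS1, IRS2, IGF2BP3, CCN1 and CCN2 whatever their result, up to 4 called genes of each list, the nearest array genes beside IGFBP2, IGFBP3 and IGFBP5, and the 5 genes most like IGFBP3. The members and lists were chosen with earlier results of these data known. NRCAM was singled out among those 5, and LUM and COL1A2 among the fibroblast markers, after their values were seen.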

Additional observations from a re-analysis of the deposited data

Results flagged for a closer look

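IGFBP1 was marked for a closer look because its change differed between the 2 cell lines in limma's fit. The change was 1.65 ± 0.23 in 22Rv1-DR against 22Rv1 and 0.03 ± 0.23 in DU145-DR against DU145, a difference of 1.63 ± 0.33 on the log2 scale. Its intensity was 107 and 101 in 22Rv1-DR against 19.7 and 24.8 in 22Rv1, and 39.4 and 63.1 in DU145-DR against 41.1 and 58.1 in DU145. IGFBP1 exceeded the filter on dim genes (intensity 74.0) through 22Rv1-DR alone, so it had to differ there, and its DU145-DR and DU145 readings were at percentiles 6.2 to 25.6, near the floor of those arrays. The size of the difference therefore rests on floor readings. The difference passed in 10 of 15 alternative settings. It was lost when DU145 replicate 2 was left out, and likewise for each single 22Rv1-DR or 22Rv1 array. The difference was found in the contrast with which the members were chosen.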

How the results depend on the processing

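IGFBP3 passed under all 17 alternatives in both lines, with changes of 3.21 to 3.54 in DU145 and 3.18 to 3.59 in 22Rv1, and IGFBP1 passed in 22Rv1 under all 16 that gave it a value (0.96 to 2.19). The count of members called in DU145, 1 in the fit reported, was 3 after quantile normalization, 2 with a pseudocount of 64, 2 with no filter on dim genes, 2 with a filter at the 60th percentile, 2 with probe sets of a gene averaged, 2 with all 12 arrays and the table as a block, and 1 to 2 without each array in turn. In 22Rv1 it was 1 at the 60th percentile and 3, with IGFBP2 added, with only the 4 arrays compared, and for the difference 0 at the 60th percentile and 0 to 1 without each array. The IGF axis count was 7 in DU145 and 8 in 22Rv1 with only the 4 arrays compared, 7 in 22Rv1 with 12 arrays, and 7 to 13 and 2 to 7 without each array in turn. Only the 4 arrays could not give the difference.

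The labels do not say what the replicate numbers pair. Deviations of replicate 1 correlated across genes between resistant and parental arrays at 0.693 in DU145 and 0.792 in 22Rv1, and at 0.0688 to 0.123 across lines. With the replicate number as a block, 3 members were called in DU145 (IGFBP4 and IGF2R added), 3 in 22Rv1 (IGFBP2 added) and 2 for the difference (IGFBP4 added), and 21 and 15 IGF axis genes in DU145 and 22Rv1. All genes called were then 3445 in DU145, 2147 in 22Rv1 and 3080 for the difference, against 1069, 540 and 777. They were 292 and 1266 with only the 4 arrays compared, 2089 in DU145 and 1335 for the difference with 12 arrays, 1229 for the difference after quantile normalization, and 489 to 1523, 214 to 866 and 314 to 1280 without each array in turn.

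Signs turned in members whose changes were small. IGF1R in DU145 gave -0.66 with the mean of its probe sets, -2.18 and -0.059 on 203628_at and 208441_at alone, and -0.11 to 0.63 without each array. Its difference gave 0.45, 1.90 and 0.079 under the first 3 of these, and 208441_at alone gave 0.020 in 22Rv1. The IGFBP3 difference gave -0.37 after quantile normalization, -0.0020 with a pseudocount of 64, -0.087 with the mean of probe sets, -0.17 with 12 arrays, -0.25 on 212143_s_at and -0.080 to 0.24 without each array. IGFBP5 gave -0.056 with 12 arrays, -0.011 on 203425_s_at and -0.78 to 0.85 without each array in DU145, -0.013 with the mean and -0.020 on 211958_at in 22Rv1, and -0.076, -0.15 and -0.80 to 0.84 for the difference. Without each array IGFBP1 gave -0.23 to 0.28 and IGFBP2 -0.31 to 0.045 in DU145. The causes were not tested.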
